A study of Mus musculus with 16 samples.

Results

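The genes described here encode pyruvate dehydrogenase with its kinases and phosphatases, pyruvate carboxylase, and the enzymes of the citric acid cycle. They were taken by symbol: 29 genes were listed, and all 29 were among the 23440 genes of the deposited expression table. They comprise 17 cycle enzymes, 4 subunits of the pyruvate dehydrogenase core, 4 pyruvate dehydrogenase kinases, 3 genes for its phosphatases and pyruvate carboxylase. RNA was measured in gastrocnemius, the large calf muscle, of male C57Bl6/J mice aged 20 weeks, in 4 groups of 4 mice. Wild-type (WT) mice were either untrained or had run daily on a treadmill for 5 weeks, and mice labelled Il13-/-, a genotype named for the gene of the type 2 cytokine interleukin 13, were likewise untrained or trained. The labels do not say how the Il13 allele was made, and all 16 libraries carry different mouse identifiers. The comparisons address how member transcripts differ after training in each genotype, whether that training difference itself differs between the genotypes, and how the genotypes differ within each training state.

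Values are RPKM, reads per kilobase of gene scaled to the total reads of the library. The steps between possible RPKM values gave back whole reads for every gene above 0, with library totals of 16307025 to 20074677 reads. Il13 had 0 reads in all 8 WT libraries and at most 2 reads in 4 of the 8 Il13-/- libraries, so its level does not check the genotype labels. Summed over 8 muscle fibre markers such as Acta1 and Ckm, untrained WT mice held 62613 to 68449 RPKM and trained WT mice 53750 to 62441. Untrained Il13-/- mice held 60224 to 62065 RPKM and trained Il13-/- mice 54239 to 59224. In both genotypes this sum was lower in trained than in untrained mice, without overlap. In whole muscle, fewer cells of a type and less RNA per cell cannot be told apart. A summed set of 10 slow and oxidative fibre markers, among them Myh7 and Tnnt1, ran from 671 to 938 RPKM in untrained WT mice, from 1254 to 1654 in trained WT mice, from 789 to 1382 in untrained Il13-/- mice and from 641 to 1418 in trained Il13-/- mice. Summed tendon markers followed a similar course, at 122 to 155, 206 to 269, 147 to 259 and 98.5 to 227 RPKM in those groups. In both Il13-/- groups the mouse numbered 3 had the highest sum of each of these 2 sets. It also had the highest summed adipocyte markers, at 262 RPKM untrained (the others up to 150) and 204 trained (up to 112). The same held for summed nerve and Schwann cell markers, at 136 RPKM untrained (up to 69.1) and 58.1 trained (up to 51.9). For summed muscle fibre, macrophage, endothelial and erythroid markers it was not the highest in both groups. Results that rest on the Il13-/- libraries numbered 3 are given below with and without them. The part of these markers in the member differences was not tested.

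Pyruvate dehydrogenase is the mitochondrial complex that turns pyruvate from glycolysis into acetyl-CoA, which citrate synthase then feeds into the citric acid cycle. The kinases phosphorylate the complex and switch it off, and the phosphatases reverse this, so their balance sets how much carbohydrate carbon enters the cycle in muscle. Endurance training is known to raise the mitochondrial content of muscle, and citrate synthase activity is a customary marker of it. Pdk4, the kinase induced by fasting and prolonged exercise, is known to respond to fuel supply in muscle.

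The regions upstream of 4 members are shown because Dld had the smallest p for training over both genotypes, Sdhd had the next smallest, and Ogdh and Cs were among the 3 members with the smallest p for the difference between the genotypes' training responses. Each sequence ends at the base before the start given by RefSeq (GRCm38.p6) and reads 5′ to 3′ on the gene's strand, and a window check found no annotated exon in them. Capitals mark the ETS motif CCGGAAG on either strand, and the other lower-case letters hold none of the motifs searched. The Sdhd stretch is shorter because exons of Timm8b begin just upstream. The Dld window is chr12:31351472-31351721 (minus strand), the Sdhd stretch is chr9:50603850-50603909 (minus), the Cs window is chr10:128337477-128337726 (plus) and the Ogdh window is chr11:6291347-6291596 (plus).
Dld: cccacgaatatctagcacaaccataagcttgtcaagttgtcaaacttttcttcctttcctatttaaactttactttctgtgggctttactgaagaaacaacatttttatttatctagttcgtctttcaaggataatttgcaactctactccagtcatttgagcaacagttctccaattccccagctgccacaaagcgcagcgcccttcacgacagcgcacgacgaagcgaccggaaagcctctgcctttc
Sdhd: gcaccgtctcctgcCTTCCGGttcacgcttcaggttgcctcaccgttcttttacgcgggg
Cs: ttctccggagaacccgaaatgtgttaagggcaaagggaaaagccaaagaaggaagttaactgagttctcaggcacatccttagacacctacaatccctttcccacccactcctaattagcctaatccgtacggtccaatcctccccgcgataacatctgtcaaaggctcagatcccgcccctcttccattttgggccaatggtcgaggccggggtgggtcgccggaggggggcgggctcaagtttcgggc
Ogdh: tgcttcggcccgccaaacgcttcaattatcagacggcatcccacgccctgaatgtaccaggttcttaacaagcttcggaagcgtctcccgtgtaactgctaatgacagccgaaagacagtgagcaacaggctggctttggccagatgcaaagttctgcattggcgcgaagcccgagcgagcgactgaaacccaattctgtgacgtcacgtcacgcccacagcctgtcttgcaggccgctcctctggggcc

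RefSeq gave a window of 250 bases for 26 of the 29 members. The NRF1 motif, GCGCA followed by any base and GCGC, searched on both strands, was in 3 of the 26, those of Sucla2, Sdha and Sdhd (11.5%), against 3.74% of 32851 windows genome-wide. Sdha held 3 matches, of which GCGCAAGCGC ended at the base before its start, and Sdhd held GCGCACGCGC from 79 to 70 bases before its start. The ETS motif was in the windows of Idh3g and Sdhd (7.69%), against 6.91% of all windows. The estrogen-related receptor half-site AAGGTCA and the FoxO motif GTAAACA were in 0 of the 26, against 4.08% and 3.17% of all windows. These matches describe letters in the window, not bound sites.

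The 29 transcripts spanned a wide range of levels. Averaged over the 16 libraries, Mdh2, malate dehydrogenase of the mitochondrion, was highest at 584 RPKM, followed by Pdk4 at 340, the succinate dehydrogenase iron-sulfur subunit Sdhb at 332, citrate synthase Cs at 307 and the succinate dehydrogenase flavoprotein Sdha at 275 RPKM. The 3 subunits of NAD-linked isocitrate dehydrogenase lay close together, at 248 RPKM for Idh3b, 219 for Idh3a and 205 for Idh3g. Within the pyruvate dehydrogenase core, the catalytic subunits Pdha1 and Pdhb averaged 242 and 144.3 RPKM, the acetyltransferase Dlat 42.7 and the binding protein Pdhx 30.4. Among succinyl-CoA ligase genes, the ADP-forming subunit Sucla2 averaged 181 RPKM and the GDP-forming subunit Suclg2 31.2. Pdk3, the least abundant kinase, averaged 0.444 RPKM from 8 to 29 reads per library and was the only member below the filter of 1 RPKM in at least 4 libraries, so 28 members entered the tests. All these are levels per length, so they can be set side by side.

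**Figure D1:**
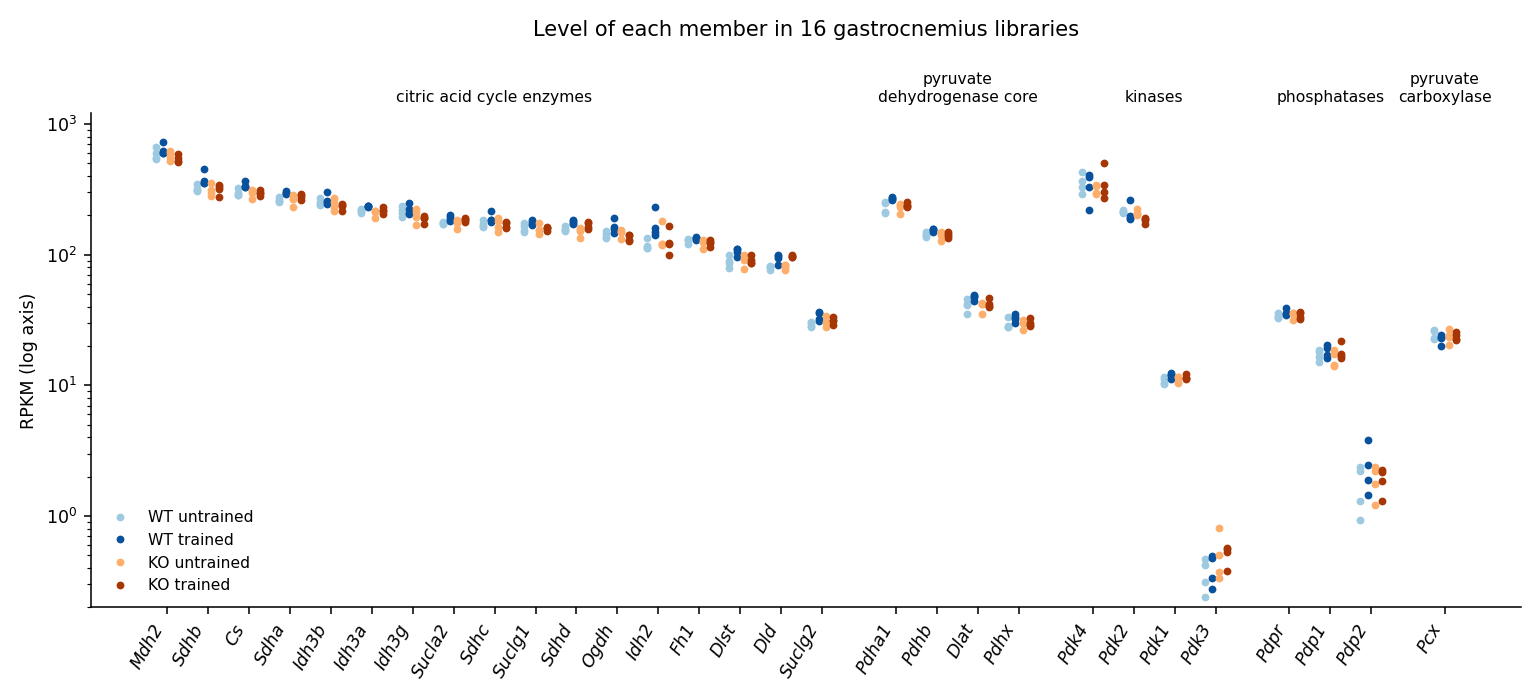
RPKM of the 29 members on a log axis, with points for the 16 libraries in the 4 group colours, ordered by mean level within role. Mdh2 is highest at a mean of 584 RPKM and Pdk3 lowest at 0.444 RPKM.

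Within groups, libraries tended to be high or low for many members together. The untrained Il13-/- mouse 4 was the lowest of its group for 23 of the 29 members, and the trained Il13-/- mouse 2 was the lowest of its group for 21. The untrained WT mouse 2 was the highest of its group for 21 members, the untrained Il13-/- mouse 3 for 20 and the trained WT mouse 1 for 16. Reads in listed genes made up 75.6% to 83.5% of each library total, with group ranges of 79.9% to 83.3% in untrained WT, 76.0% to 83.5% in trained WT, 77.2% to 81.7% in untrained Il13-/- and 75.6% to 78.3% in trained Il13-/- mice. The trained WT mouse 1 (83.5%) and untrained WT mouse 2 (83.3%) had the highest share of their groups, and the untrained Il13-/- mouse 4 (77.2%) the lowest. The untrained Il13-/- mouse 3 (80.8%) and trained Il13-/- mouse 2 (75.8%) lay between the extremes of their groups.

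Training in WT mice was accompanied by small positive differences across the cycle and the pyruvate dehydrogenase core, none of which passed the adjusted threshold. Differences were tested with limma on log2(RPKM + 0.1), with Benjamini-Hochberg adjustment over all 10171 genes past the filter and a threshold of 0.05. No member passed (0 of 28), against 0.187% of all genes tested. At an unadjusted p under 0.05, 14 members were higher, against 6.11% of all genes, and 0 were lower, against 5.71%. These 14 were 10 of the 17 cycle enzymes, 3 of the 4 core subunits (Pdha1, Pdhb and Dlat) and the kinase Pdk1. The trained and untrained WT libraries did not overlap for 11 members, all higher with training, against 3.76% of all genes. The median log2 difference was 0.14 over the 28 members, 0.18 over the cycle enzymes and 0.18 over the core, beside 0.01 over all genes tested.

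In Il13-/- mice the same comparison centred near 0 for the members. No member passed the adjusted threshold, and neither did any of the 10171 genes (0%). Dld and Sdhd were higher at an unadjusted p under 0.05, against 4.85% of all genes, and Pdk2 was lower, against 8.9%. Trained and untrained libraries did not overlap for Dld, which was higher (4% of all genes), and Pdk2, which was lower (5.43%). Of the 28 members, 19 had a difference above 0, against 35.1% of all genes. Their median log2 difference was 0.02, while the median over all genes tested was -0.06. With the medians of all libraries set equal, 5 members were higher and 0 lower at the unadjusted threshold. Under that scaling 62.1% of the genes called at this threshold were higher, against 35.3% as deposited. With equal medians these were 937 higher and 571 lower of all 10171 genes.

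The difference between these responses, Il13-/- minus WT, was above 0 for only 4 of the 28 members, Dld, Pdk4, Pdp1 and Pcx, against 38.4% of all genes, and no member passed the adjusted threshold, nor did any gene (0%). The WT and Il13-/- training differences share no mice. At an unadjusted p under 0.05, Ogdh, Idh2 and Cs had a lower response in Il13-/- mice, against 6.05% of all genes. The median over the members was -0.11, beside -0.05 over all genes tested. Among genes called at the unadjusted threshold, 27.99% were higher as deposited and 50.9% with equal medians, while the 3 members called in that fit were again lower. With equal medians 510 of all 10171 genes were higher and 491 lower.

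**Figure D2:**
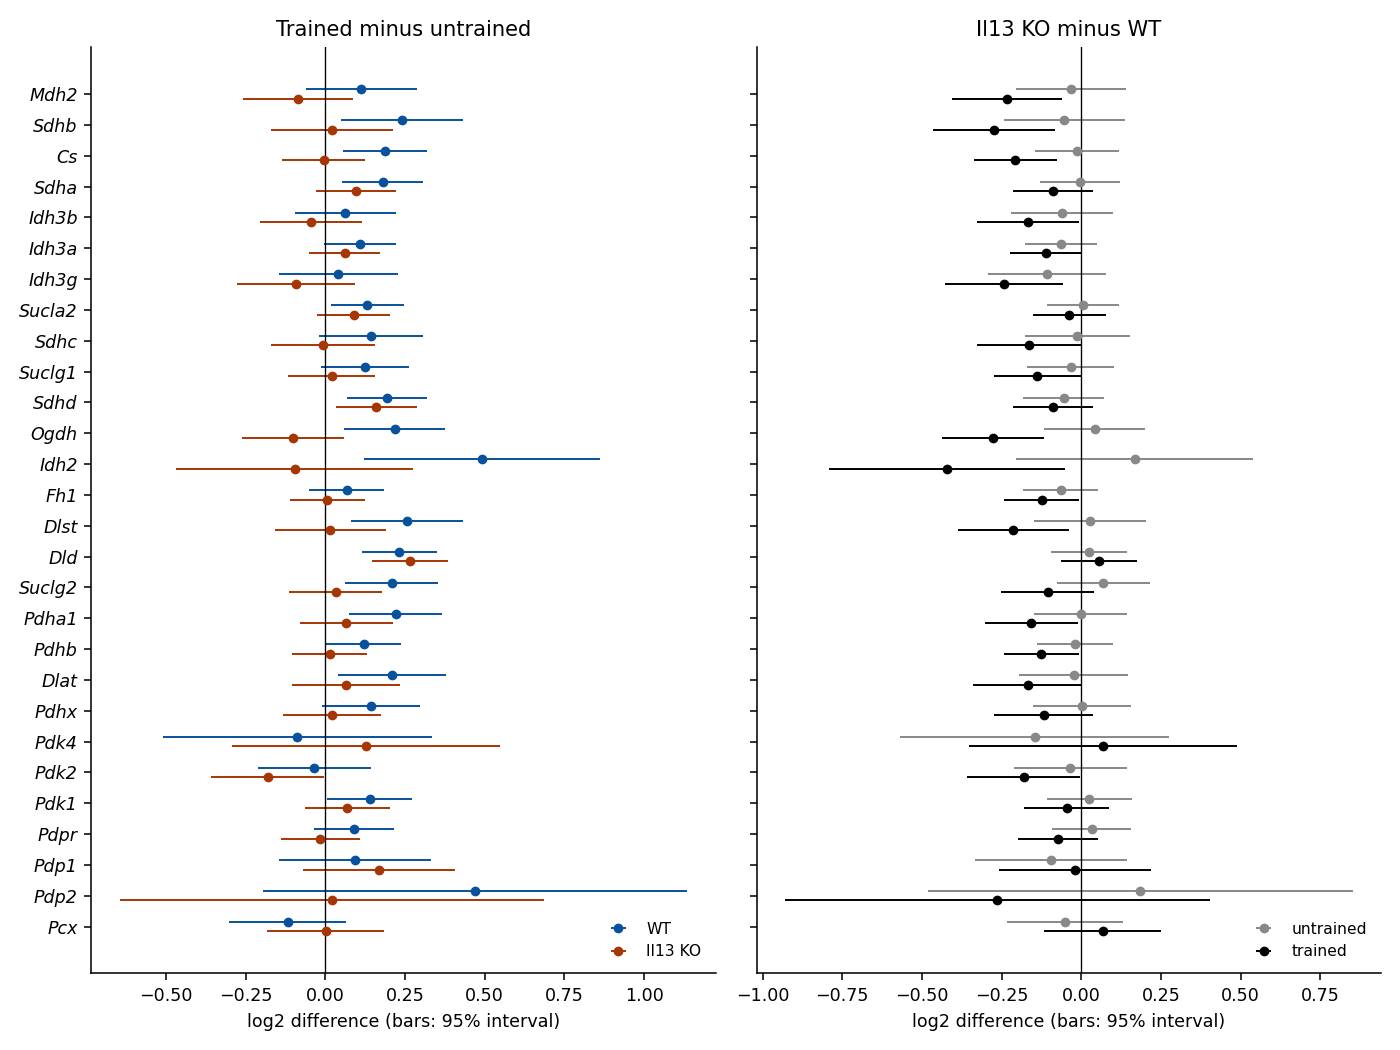
Log2 differences of the 28 tested members with 95% intervals from limma, trained minus untrained in each genotype on the left and Il13-/- (KO) minus WT in each training state on the right. On the left most WT values lie above 0, with Idh2 at 0.49, while most Il13-/- values lie near 0 apart from Dld at 0.26.

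Averaged over both genotypes, training was associated with 10 members higher at an unadjusted p under 0.05, against 7.19% of all genes, and 0 lower, against 10.8%. Dld alone rose past the adjusted threshold, against 0.324% of all genes called higher. Among untrained mice, 0 members passed either threshold between the genotypes, against 0.0492% of all genes at the adjusted one and 3.22% higher and 2.99% lower at the unadjusted one. The widest 95% interval among the 17 cycle enzymes in that comparison was that of Idh2, from -0.20 to 0.54 on the log2 scale. Among trained mice, 0 members passed the adjusted threshold, against 0.0885% of all genes. At the unadjusted threshold 15 members were lower in Il13-/- mice, against 9.65% of all genes, and 0 were higher, against 4.21%. The trained groups did not overlap for 12 of these members, against 5.86% of all genes. The count at the unadjusted threshold fell to 9 with equal medians, where 628 of all 10171 genes were higher and 823 lower. It fell to 5 without the trained Il13-/- mouse 2 or mouse 4, fits whose share of all genes is not given. The median log2 difference was -0.13 over the 28 members, beside -0.05 over all genes tested. The comparison of trained genotypes, training in WT and the difference of responses all use the same 4 trained WT mice. Their counts of members are therefore not independent of each other. Averaged over both training states, 8 cycle enzymes were lower in Il13-/- mice at the unadjusted threshold, against 8.2% of all genes, and 0 members passed the adjusted threshold, against 0.0787%.

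Dld encodes dihydrolipoamide dehydrogenase, the subunit shared by pyruvate dehydrogenase, the alpha-ketoglutarate dehydrogenase complex and branched-chain ketoacid dehydrogenase. Its level was 81.5, 80.6, 76.2 and 79.8 RPKM in untrained WT mice 1 to 4 and 83.3, 98.1, 94.4 and 98.8 in trained WT mice 1 to 4. Untrained Il13-/- mice gave 80.7, 83.6, 82.9 and 76.4 RPKM and trained Il13-/- mice 99.3, 95.9, 97.8 and 95.5. The trained libraries lay above the untrained libraries in both genotypes without overlap, and the trained WT mouse 1 was the lowest of the trained mice. Group means were 79.5 ± 2.31, 93.6 ± 7.15, 80.9 ± 3.22 and 97.1 ± 1.78 RPKM (SD, n = 4). Over both genotypes Dld rose 1.19-fold with training (log2 0.25, SE 0.04, limma adjusted p = 0.0137). Its WT difference was 0.23 (adjusted p = 0.0730) and its Il13-/- difference 0.26 (adjusted p = 0.139), and the 95% interval of the gap between them ran from -0.14 to 0.20. Across the 26 alternatives tried for this comparison, its difference ranged from 0.23 to 0.29 and its adjusted p from 0.00110 to 0.0619. The highest of these came from leaving out both Il13-/- mice numbered 3, at a log2 difference of 0.25, and the call was then lost.

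Sdhd and Sdha, the membrane anchor and the flavoprotein of succinate dehydrogenase, had the next smallest p over both genotypes. Sdhd was at 154, 164, 150 and 156 RPKM in untrained WT mice and at 185, 176, 173 and 179 in trained WT mice, with no overlap. Untrained Il13-/- mice gave 155, 152, 159 and 135 RPKM and trained Il13-/- mice 177, 164, 174 and 156, where mouse 4 fell within the untrained range. The log2 difference over both genotypes was 0.18 (adjusted p = 0.0562). Sdha was at 254, 275, 262 and 258 RPKM in untrained and 308, 297, 289 and 294 in trained WT mice, and at 268, 265, 284 and 233 in untrained and 286, 262, 292 and 278 in trained Il13-/- mice. Its WT groups did not overlap and its Il13-/- groups did, and its difference over both genotypes was 0.14 (adjusted p = 0.110). Both passed the threshold with equal medians, at adjusted p = 0.0133 for Sdhd and 0.0189 for Sdha. Sdhb, the iron-sulfur subunit, was at 306, 350, 312 and 318 RPKM in untrained and 455, 368, 350 and 353 in trained WT mice, a log2 difference of 0.24 (adjusted p = 0.284) that the trained mouse 1 led. Among trained mice its level was lower in Il13-/- mice, at 326, 278, 339 and 316 RPKM, beside 314, 296, 354 and 279 in untrained Il13-/- mice, with a log2 difference of -0.27 (adjusted p = 0.232).

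Cs, citrate synthase, joins acetyl-CoA to oxaloacetate. It was at 287, 325, 287 and 295 RPKM in untrained WT mice and at 365, 336, 328 and 330 in trained WT mice, all above the untrained ones. Untrained Il13-/- mice gave 309, 297, 312 and 267 RPKM, and trained Il13-/- mice 309, 281, 294 and 293, which lay within the untrained range. The WT difference was 0.19 (adjusted p = 0.215), the Il13-/- difference -0.01 (adjusted p = 0.974) and the gap between them -0.19, with a 95% interval from -0.38 to -0.01 and an adjusted p of 0.584. Without both Il13-/- mice numbered 3 the gap was -0.17 (adjusted p = 0.792), and its unadjusted p rose to 0.113.

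Ogdh, the decarboxylating subunit of the alpha-ketoglutarate dehydrogenase complex, had the smallest p for that gap. Untrained WT mice were at 134, 151, 136 and 143.9 RPKM and trained WT mice at 190, 158, 147 and 163. Untrained Il13-/- mice were at 148.5, 147.9, 154 and 131 RPKM and trained Il13-/- mice at 142, 130, 141.3 and 128. The WT groups overlapped only at the untrained mouse 2 and the trained mouse 3, and every trained Il13-/- mouse lay below every trained WT mouse. The gap between responses was -0.32 (SE 0.11, adjusted p = 0.526), and among trained mice the genotypes differed by -0.28 (adjusted p = 0.1998). Without both Il13-/- mice numbered 3 these differences were -0.31 (adjusted p = 0.623) and -0.30 (adjusted p = 0.181). Dlst, the succinyltransferase of the same complex, differed by 0.26 with training in WT (adjusted p = 0.198) and by 0.02 in Il13-/- mice (adjusted p = 0.945). Of the 3 components of that complex, Dld was the one whose trained and untrained libraries did not overlap in either genotype.

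**Figure D3:**
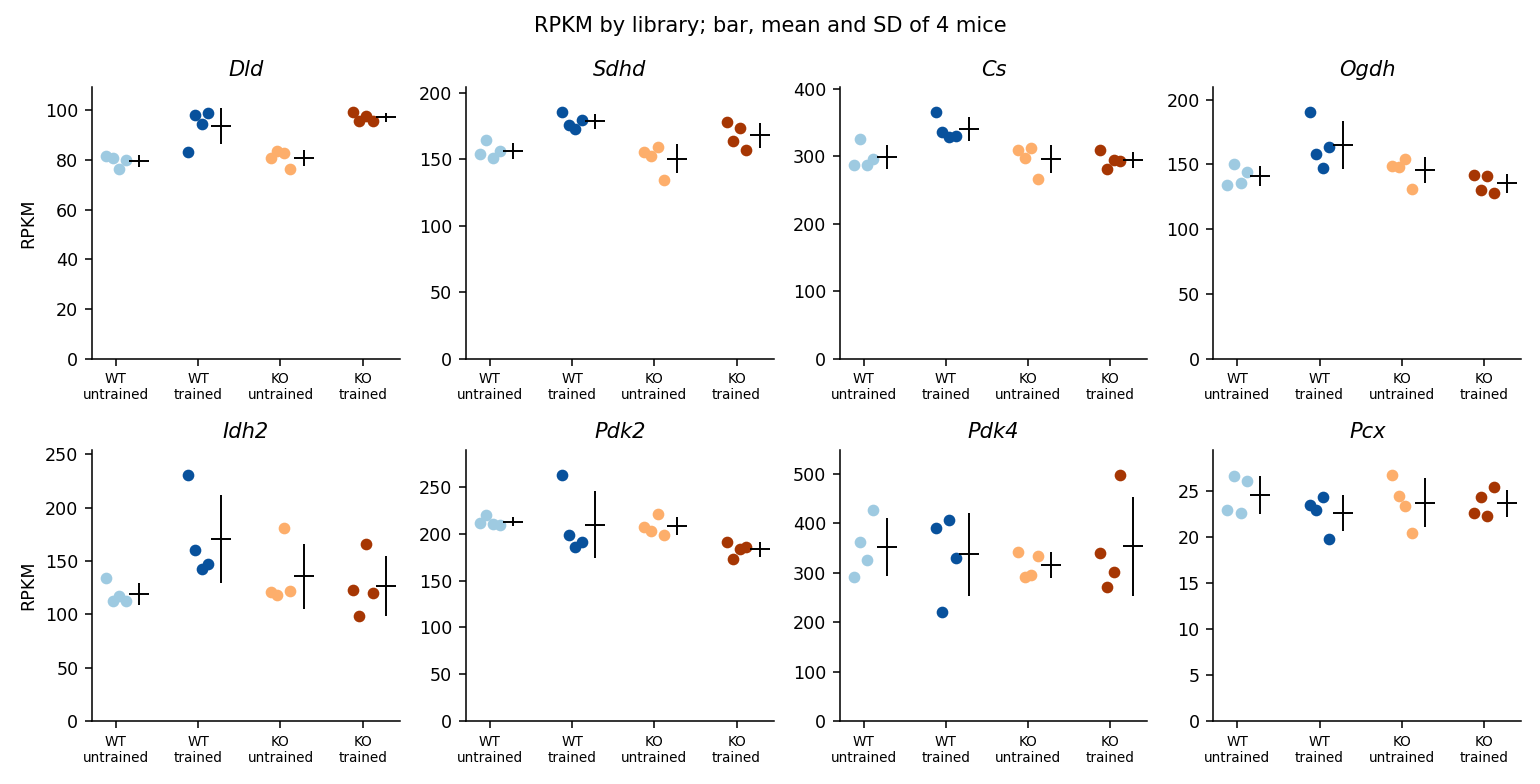
RPKM in each library for 8 members (Dld, Sdhd, Cs, Ogdh, Idh2, Pdk2, Pdk4 and Pcx), 1 panel per gene with 4 points per group, the group mean as a horizontal line and its SD as a vertical line. Trained mice lie above untrained mice for Dld in both genotypes, while trained Il13-/- mice lie below trained WT mice for Ogdh and Cs.

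Idh2, the NADP-linked isocitrate dehydrogenase of mitochondria, had the largest WT difference of the 28 members. It was at 134, 113, 116.96 and 112 RPKM in untrained WT mice and at 231, 160, 142 and 147.6 in trained WT mice. Untrained Il13-/- mice gave 121.3, 118.01, 181 and 122 RPKM and trained Il13-/- mice 123, 98.8, 166 and 120. The trained WT mice exceeded all untrained WT mice, and mouse 3 stood apart as the highest in each Il13-/- group. The log2 difference was 0.49 in WT (SE 0.17, adjusted p = 0.259) and -0.10 in Il13-/- mice (adjusted p = 0.823), with a gap of -0.59 (adjusted p = 0.551). Without both Il13-/- mice numbered 3, the Il13-/- difference was -0.08 (adjusted p = 0.891) and the gap -0.58 (adjusted p = 0.581). Between genotypes, Idh2 differed by 0.17 among untrained (adjusted p = 0.890) and -0.42 among trained mice (adjusted p = 0.309). Without those mice these differences were 0.02 (adjusted p = 0.985) and -0.56 (adjusted p = 0.123). The 6 libraries highest in Idh2 were the same 6 that were highest in the summed slow and oxidative fibre markers: the 4 trained WT mice and mouse 3 of each Il13-/- group. The trained Il13-/- mouse 1, ranked 9 of 16 by those markers, had the highest Dld of all 16 libraries. Of those 6 libraries, the trained WT mice 4 and 2 and the trained Il13-/- mouse 3 ranked 2, 3 and 4 by Dld. The trained WT mice 1 and 3 and the untrained Il13-/- mouse 3 ranked 9, 7 and 10. By Cs, the trained WT mice 1 to 4 ranked 1, 2, 4 and 3. The untrained Il13-/- mouse 3 ranked 6 by Cs and the trained Il13-/- mouse 3 ranked 11. Whether Idh2, Dld or Cs follows fibre content was not tested. The NAD-linked Idh3a varied less, at 209, 224, 220 and 217 RPKM in untrained WT, 234, 232, 235 and 236 in trained WT, 215, 213, 216 and 189.5 in untrained Il13-/- and 230, 205, 215 and 219 in trained Il13-/- mice. Its trained WT mice lay above all other libraries.

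**Figure D4:**
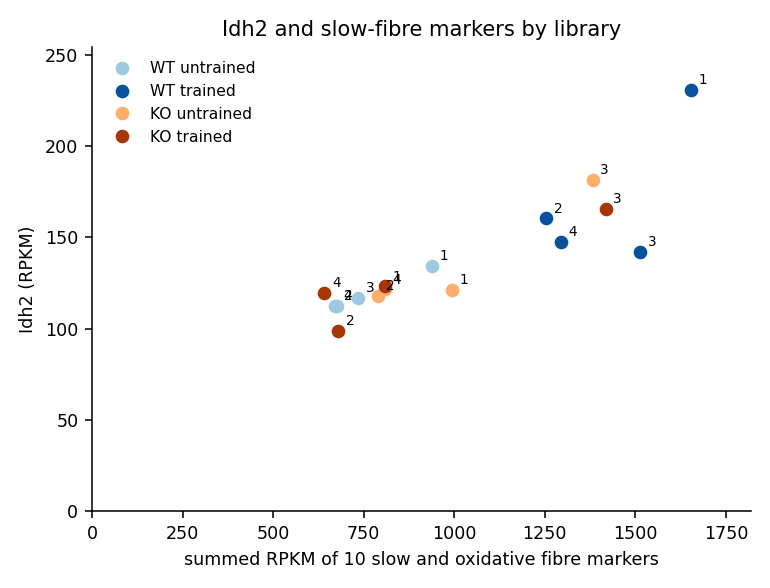
Idh2 RPKM against the summed RPKM of 10 slow and oxidative fibre markers, 1 point per library with its mouse number and group colour. The 4 trained WT libraries and the Il13-/- libraries numbered 3 hold the 6 highest values on both axes.

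Among the other cycle enzymes, Mdh2 was at 542, 661, 546 and 600 RPKM in untrained WT mice and 728, 616, 595 and 602 in trained WT mice, which overlapped. It was at 599, 561, 620 and 516 RPKM in untrained and 585, 515, 548 and 510 in trained Il13-/- mice, and the trained genotypes differed by -0.23 (adjusted p = 0.246) without overlap. Fh1, fumarase, was at 120.6, 132, 129 and 129 RPKM in untrained WT, 137, 134, 134 and 130 in trained WT, 125, 124, 129 and 111 in untrained Il13-/- and 129, 115, 122 and 124 in trained Il13-/- mice, and the trained genotypes did not overlap. Fh1 and Idh3g had the smallest p of the untrained genotype comparison together with Idh3a, with log2 differences of -0.06, -0.11 and -0.06 (adjusted p = 0.868, 0.853 and 0.860). Idh3g was at 195, 235, 209 and 219 RPKM in untrained WT and 250, 224, 203 and 207 in trained WT mice. In Il13-/- mice it was at 211, 195, 224 and 169 RPKM untrained and 196, 170, 189 and 191 trained. Over both training states it had the smallest p for genotype, with a log2 difference of -0.18 (adjusted p = 0.325). Suclg2 and Sucla2 were higher without overlap in trained WT mice, by 0.21 (adjusted p = 0.215) and 0.13 (adjusted p = 0.332), and Suclg1 by 0.12 with overlap (adjusted p = 0.477).

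In the pyruvate dehydrogenase core, Pdha1, the alpha subunit on which the kinases act, was at 209, 253, 213 and 248 RPKM in untrained WT mice and 259, 264, 276 and 273 in trained WT mice. It was at 245, 231, 238 and 206 RPKM in untrained and 252, 236, 241 and 233 in trained Il13-/- mice. Trained WT mice were therefore above all other groups, and the Il13-/- groups overlapped. The WT difference was 0.22 (SE 0.07, adjusted p = 0.182) and the Il13-/- difference 0.06 (adjusted p = 0.682). Summed over the 4 core subunits, the level was 443 ± 31.96 RPKM in untrained WT, 502 ± 12.8 in trained WT, 440 ± 32.5 in untrained Il13-/- and 454 ± 18.1 in trained Il13-/- mice (SD, n = 4).

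Of the kinases, Pdk4 had the widest range of RPKM within each group. It was at 291, 363, 327 and 428 RPKM in untrained WT, 391, 220, 407 and 330 in trained WT, 342, 292, 295 and 334 in untrained Il13-/- and 341, 272, 303 and 499 in trained Il13-/- mice. All 4 groups overlapped. Its log2 difference with training was -0.09 in WT (95% interval -0.51 to 0.33, adjusted p = 0.896) and 0.13 in Il13-/- mice (interval -0.29 to 0.55, adjusted p = 0.790). Pdk2, a widely expressed isoform, was at 212, 220, 211 and 209 RPKM in untrained WT mice and 263, 199, 186 and 191 in trained WT mice, where mouse 1 lay above and the others below the untrained range. Untrained Il13-/- mice gave 207, 203, 221 and 199 RPKM and trained Il13-/- mice 191, 173, 183 and 186, all below the untrained ones. The Il13-/- difference was -0.18 (adjusted p = 0.355). It was -0.15 without both mice numbered 3 (adjusted p = 0.694), with an unadjusted p of 0.156. Pdk1 stayed between 10.2 and 12.5 RPKM in all 16 libraries.

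The phosphatase genes were lower in level. Pdpr, the regulatory subunit, was at 32.6, 35.9, 33.7 and 33.4 RPKM in untrained WT, 38.8, 35.2, 34.6 and 35.7 in trained WT, 35.3, 35.6, 36.02 and 31.8 in untrained Il13-/- and 35.5, 32.1, 36.1 and 33.5 in trained Il13-/- mice, and its groups overlapped. Pdp1, the calcium-sensitive catalytic subunit, ran from 13.9 to 22.0 RPKM over the 16 libraries and Pdp2 from 0.939 to 3.85 RPKM, on 55 to 240 reads. None of the 3 reached an unadjusted p under 0.05 in any of the 7 comparisons. Pcx, pyruvate carboxylase, which makes oxaloacetate directly from pyruvate, was at 22.9, 26.7, 22.7 and 26.1 RPKM in untrained WT, 23.5, 22.9, 24.3 and 19.8 in trained WT, 26.8, 24.4, 23.3 and 20.4 in untrained Il13-/- and 22.6, 24.3, 22.3 and 25.5 in trained Il13-/- mice. Its groups overlapped, and its training differences were -0.12 in WT (adjusted p = 0.640) and 0.00 in Il13-/- mice (adjusted p = 0.998).

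Ratios of members within a library do not depend on how a library is scaled. For 6 ratios, training labels were permuted within genotype and genotype labels within training state in a two-sided exact permutation test of 4900 arrangements, whose smallest possible p is 0.000408, with adjustment over the 12 tests. The ratio of Pcx to Pdha1 was 0.107 ± 0.00193 in untrained WT and 0.0846 ± 0.00806 in trained WT mice, which did not overlap, and 0.103 ± 0.00537 in untrained and 0.0988 ± 0.00909 in trained Il13-/- mice (SD, n = 4). Its log2 difference with training over both genotypes was -0.20 (exact permutation p = 0.00653, adjusted p = 0.0784). The adjusted p was 0.0441 without the trained WT mouse 1 and 0.0294 without the trained Il13-/- mouse 4. Over the 17 alternatives tried it reached 0.176 at most, and in 15 of them the ratio did not pass, as with all mice. The ratio of Ogdh to Pdha1 reached an adjusted exact p of 0.0441 without the trained WT mouse 1, from 0.853 with all mice. In 16 of 17 alternatives it did not pass, with an adjusted exact p of up to 0.968. Its Il13-/- libraries ran from 0.605 to 0.647 untrained and from 0.548 to 0.587 trained, without overlap. Its WT means were 0.614 ± 0.0306 untrained and 0.616 ± 0.0848 trained. The ratio of Pdk4 to Pdk2 was 1.66 ± 0.284, 1.63 ± 0.454, 1.52 ± 0.167 and 1.92 ± 0.513 in untrained WT, trained WT, untrained Il13-/- and trained Il13-/- mice, with adjusted exact permutation p = 0.940 for training. The summed kinases exceeded the summed catalytic phosphatases by 30.8-fold, 27.7-fold, 30.4-fold and 27.97-fold in the same order. The other ratios, Sucla2 to Suclg2 and Idh2 to Idh3a, did not pass either, and no ratio passed for genotype.

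**Figure D5:**
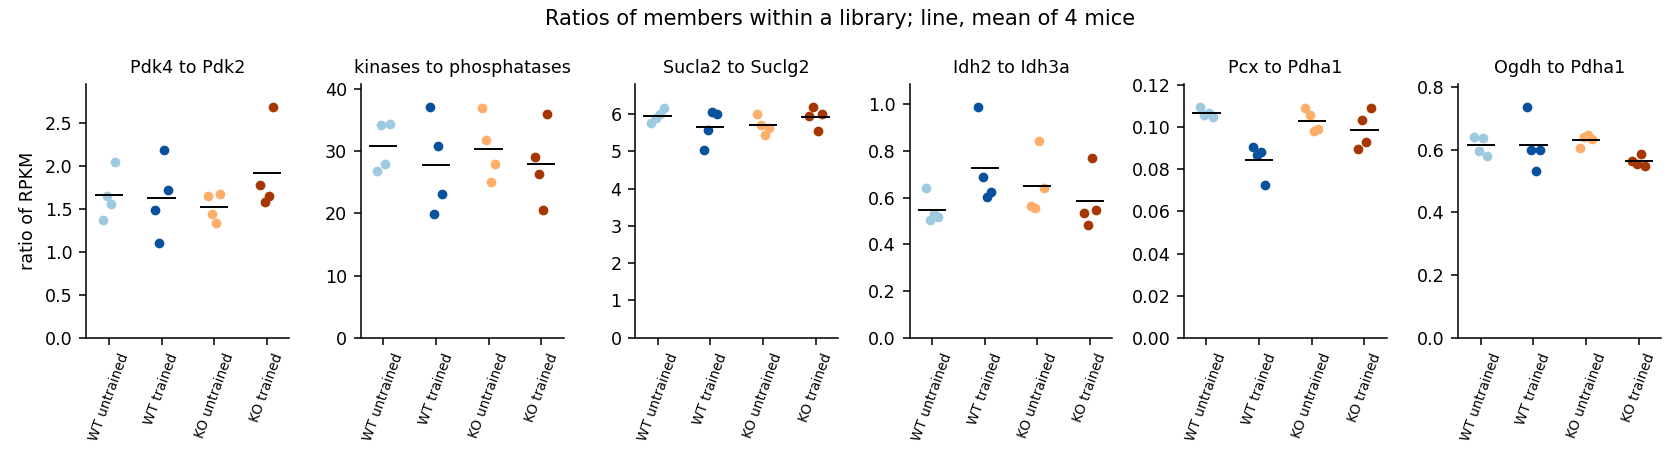
The 6 ratios of member RPKM within each library, 1 panel per ratio with 4 points per group and the group mean as a line. Pcx to Pdha1 is lower in trained than in untrained WT mice, at means of 0.0846 and 0.107.

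Related genes were read from 4 lists. Of the pyruvate entry and cofactor genes, 8 of 9 were tested and 0 passed the adjusted threshold in any comparison. In WT training Ldhb, the heart-type lactate dehydrogenase subunit, was higher by 0.70 (adjusted p = 0.0862) and Ldha, the muscle-type subunit, lower by a log2 difference of -0.21 (adjusted p = 0.196), while the mitochondrial pyruvate carrier subunit Mpc2 had the smallest p in Il13-/- training at 0.16 (adjusted p = 0.334). Of 11 genes for cycle isoforms and assembly factors, 7 were tested and 0 passed; Mdh1, the cytosolic malate dehydrogenase, was at 248.8 ± 24.8, 334 ± 24.2, 254 ± 30.9 and 264 ± 18.8 RPKM in untrained WT, trained WT, untrained Il13-/- and trained Il13-/- mice, a WT difference of 0.43 (adjusted p = 0.0508). Of the 14 anaplerosis and shared subunit genes, all tested, 1 passed in WT training, Got1, the cytosolic aspartate aminotransferase of the malate-aspartate shuttle. It was at 147 ± 17.7, 218 ± 23.4, 154 ± 19.9 and 168 ± 17.1 RPKM, and rose by a log2 difference of 0.57 in WT (adjusted p = 0.0415) and 0.35 over both genotypes (adjusted p = 0.0485). Of 26 alternatives, the call over both genotypes was lost in 16, with the highest adjusted p of 0.115 without both Il13-/- mice numbered 3. The WT call was lost in 10 of 27, with the highest adjusted p of 0.162 without the trained WT mouse 4. The gap between its responses was -0.44 (adjusted p = 0.526). Of the 14 regulators of Pdk4 and oxidative genes, all tested, 0 passed. Ppara, the fatty acid sensor upstream of Pdk4, differed by 0.53 in WT training (adjusted p = 0.170) and Esrrb and Esrrg, estrogen-related receptors, by 0.68 and 0.39 (adjusted p = 0.133 and 0.154). Esrrb ran from 0.995 to 3.37 RPKM over the 16 libraries, near the filter of 1 RPKM. Ppara averaged 2.92, 4.25, 4.33 and 3.56 RPKM in untrained WT, trained WT, untrained Il13-/- and trained Il13-/- mice.

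Exons of Idh3b, Pdha1 and Pdpr overlap those of Nop56, Map3k15 and 9430091E24Rik on the other strand in GENCODE M21. The library kit keeps strand, but whether the counting used it is not given in the sources used here, so reads of these pairs may be mixed. Dld lies at chr12:31331562-31351437, Ogdh at chr11:6291597-6359094, Cs at chr10:128337832-128362479, Sdhd at chr9:50596340-50603849 and Idh2 at chr7:80094847-80115350 in the coordinates of the deposited table (build mm10).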

How the data were processed

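Gastrocnemius RNA was measured in 16 libraries from a stranded, poly(A)-selected kit, per the labels' protocols. The authors deposited 1 table of RPKM per gene, made from trimmed reads per the file headers with mm10 as the genome build per the submitters' processing notes. For the aligner, counting program and annotation, the name is not given in the sources used here. RPKM were analysed as log2(RPKM + 0.1) with limma 3.58.1 (trend, robust; R 4.3.3), 1 mean per group over all 16 libraries, for the 10171 genes that reached 1 RPKM in 4 or more libraries, two-sided, with Benjamini-Hochberg adjustment over all of them and a threshold of 0.05. The pseudocount shrinks the fold changes of genes with low RPKM. Count models were planned only for a table of counts; whole reads were recovered from the RPKM steps for 100% of values above 0 (within 0.01 read or a relative 0.0001) and were used with voom as an alternative. Totals were 16307025 to 20074677 reads. On data simulated for training in WT over 10096 genes, this fit found 24% of the 50 genes given a 1.25-fold change, 72% of those given 1.5-fold and 96% of those given 2-fold or 3-fold; it also called 12 genes out of 9898 left unaltered.

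The members and gene lists were chosen with earlier results of these data known. Any member could be named; every library is given for the most abundant member of each role, for Pdk4 and for the 3 members with the smallest p in each of 7 comparisons, and up to 3 related genes per list and comparison were eligible. Replicate numbers were not used to pair mice. Replicate libraries of a group differed by more than sampling noise. Other pseudocounts (0.01, 1), filters (none, 5 RPKM), quantile and equal-median scaling, voom, fits of only the groups compared, library weights, a replicate block and leaving out each library were tried. Leaving out both Il13-/- mice numbered 3 was chosen after seeing the data. Motif searches used GRCm38.p6 windows from RefSeq, and exon overlaps GENCODE M21.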

Additional observations from a re-analysis of the deposited data

Results flagged for a closer look

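In 140 sets of 4 mice checked (member levels and ratios by group), 9 had 1 mouse far from the other 3, by a gap over range above Dixon's 95% critical value, and chance gives about 7. The trained WT mouse 1 stood high for Sdhb (455 RPKM, the others 350, 353 and 368), Sdhc (214, the others 179 to 183), Mdh2 (728, the others 595 to 616) and Pdk2 (263, the others 186 to 199). The untrained Il13-/- mouse 4 stood low for Idh3a (189.5 RPKM, the others 213 to 216), Dlat (34.9, the others 41.5 to 42.7) and Pdpr (31.8, the others 35.3 to 36.02). The untrained Il13-/- mouse 3 stood high for Idh2 (181 RPKM, the others 118.01 to 122). It also had the highest summed slow and oxidative fibre, tendon, adipocyte, and nerve and Schwann cell markers of its group. The untrained WT mouse 2 stood high for Pdhx (33.1 RPKM, the others 28.1 to 28.6). No cause of these gaps was tested.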

How the results depend on the processing

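Quantile scaling gave 6 members past the adjusted threshold for WT training, 7 for training over both genotypes, and at the unadjusted threshold 7 (Il13-/- training), 6 (difference of responses), 2 (untrained genotypes), 6 (trained genotypes), 20 (training, both) and 1 (genotype, both). Over all 10171 genes it called 923 higher and 630 lower unadjusted for Il13-/- training and 494 and 511 for the difference of responses. The counts were 329 and 421 for untrained genotypes, 783 and 659 for trained genotypes, 1018 and 910 for training over both, and 566 and 622 for genotype. Equal medians gave 1 and 4 past the adjusted threshold for WT and both, and 5, 9 and 16 unadjusted for Il13-/- training, trained genotypes and both. Over all 10171 genes this scaling called 937 higher and 571 lower, 628 and 823, and 1045 and 911 unadjusted for those comparisons. Voom on recovered reads gave 3 adjusted for both, and 6, 8 and 16 unadjusted for the same comparisons. Voom called 846 of all genes higher and 695 lower, 794 and 711, and 953 and 1023 in that order. Library weights gave 1, 1 and 6 adjusted for WT, Il13-/- and both, and 5 unadjusted for genotype. These weights called 509 of all genes higher and 797 lower unadjusted for genotype. The share of all genes past the adjusted threshold is not given for any of these alternatives. The 5 RPKM filter gave 2 (Dld and Sdhd) for both, and leaving out both Il13-/- mice numbered 3 gave 0. The Pdk4 genotype difference over both training states turned from -0.04 to 0.068 with quantile scaling and 0.0074 without those mice. Of the genes called at the unadjusted threshold, the share that was higher moved from 30.4% to 54.3% for trained genotypes and from 35.3% to 59.4% for Il13-/- training under quantile scaling.

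Leaving out each mouse in turn gave 0 to 1 members past the adjusted threshold for WT and for Il13-/- training and 1 to 4 for both; the highest came without the trained WT mouse 1, when Dld passed in WT and Il13-/- mice (adjusted p = 0.0106 and 0.0149) and Dld, Sdhd, Sucla2 and, lower, Pdk2 passed over both. Unadjusted counts ran from 5 to 15 for training over both, 1 to 8 for the difference of responses (8 without the untrained Il13-/- mouse 4), 5 to 16 for trained genotypes and 2 to 10 for genotype over both (2 without the untrained WT mouse 2, the untrained Il13-/- mouse 4 or the trained Il13-/- mouse 2). The shares of all genes in these fits are not given, so these counts show spread between fits and not an excess of members. Pdk4 differences ran from -0.19 to 0.10 (WT training), -0.052 to 0.24 (Il13-/- training), -0.12 to 0.18 (trained genotypes), -0.070 to 0.12 (training, both) and -0.14 to 0.017 (genotype, both). Log2 ratios with training ran from -0.028 to 0.017 (Sucla2 to Suclg2), -0.23 to -0.17 (Pcx to Pdha1) and -0.13 to -0.052 (Ogdh to Pdha1), and with genotype from -0.071 to 0.079 (kinases to phosphatases), -0.026 to 0.019 (Sucla2 to Suclg2), -0.11 to 0.039 (Idh2 to Idh3a), -0.017 to 0.15 (Pdk4 to Pdk2) and -0.072 to 0.0052 (Ogdh to Pdha1). The cause of these changes was not tested.

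With the replicate number as a block, Dld kept its call over both genotypes (adjusted p = 0.0376), and unadjusted counts were 12, 3, 2, 10 and 8 for WT training, Il13-/- training, their difference, trained genotypes and training over both. In that order, genes called higher and lower were 571 and 550, 449 and 862, 218 and 582, 397 and 917, and 659 and 1057. These gene counts are over all 10171 genes tested. Correlations of mice with the same number ran from -0.18 to 0.44 over 24 pairs of libraries, with a median of 0.018 and 6 above 0.1. Those of mice with different numbers ran from -0.39 to 0.21 over 72 pairs, with a median of -0.0084 and 13 above 0.1. The value of 0.44 was that of the untrained and trained Il13-/- mice numbered 3. Untrained and trained Il13-/- mice of the same number carried consecutive mouse identifiers, as did some of the WT mice. Whether such mice were related or kept together was not tested. The numbers were not taken to pair mice. The simulated recovery of 24% at 1.25-fold was for genes drawn from all those past the filter, with a median SE of 0.10. For WT training Cs, Dld and Sdha had an SE of 0.06, while Pdp1 (0.11), Idh2 (0.17), Pdk4 (0.20) and Pdp2 (0.31) lay above that median. The simulation also drew each gene independently, so it does not give the recovery of the members. Their differences were mostly below 1.25-fold, with 4 mice per group.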
